A study of Mus musculus with 200 samples.

Results

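Closed-head injury (CHI) was followed here through 8 genes chosen for their roles in the activated blood vessel wall. These were the adhesion molecules Icam1, Icam2 and Vcam1, the selectins Sele and Selp, the chemokine receptor Ackr1, the prostaglandin enzyme Ptgs2 and the platelet-binding protein Vwf. They were taken by name from a table of 56941 genes, and all 8 were present. Brain tissue of 200 mice was sequenced as bulk RNA, in 24 groups of 4 strains, 2 surgeries (a single midline impact on the intact skull, or sham surgery without the impact) and 3 collection times (9, 24 and 72 h). The strains were C57BL/6J (61 mice) and, under labels that add IL-1R1, the product of the interleukin-1 receptor gene Il1r1, gKO (55), eRestore (50) and nRestore (34), and ages ran from 3.3 to 7.67 months. At 9 h there were 6 sham and 15 CHI mice of C57BL/6J, 6 and 13 of gKO, 6 and 12 of eRestore, and 4 and 6 of nRestore. In the same order of strains the 24 h groups held 6 and 14, 6 and 12, 5 and 9, and 5 and 8 mice, and the 72 h groups 6 and 14, 6 and 12, 6 and 12, and 5 and 6. Both sexes entered each group except nRestore at 72 h, where all mice were male. The labels do not say how the gKO allele was made, which cells or promoter the names eRestore and nRestore refer to, or whether the mice of a strain shared litters.

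Resting brain endothelium holds few leukocytes. When cytokines such as interleukin-1 reach it, NF-kB is activated and the cells put selectins on their surface, which slow passing leukocytes, and then ICAM-1 and VCAM-1, which bind leukocyte integrins and hold the cells in place. Weibel-Palade bodies, the storage granules of endothelium, release P-selectin and von Willebrand factor, and cyclooxygenase-2, the product of Ptgs2, makes the prostaglandins through which inflamed vessels act on neurons.

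The levels of the members differed widely in uninjured and injured brain alike. In TPM, the deposited unit, which corrects for gene length and library size, the medians over 200 mice were 34.3 for Ackr1, 18.5 for Vcam1, 7.36 for Ptgs2, 3.96 for Vwf, 2.66 for Icam2 and 1.57 for Icam1. Sele had a median of 0.0249 TPM and Selp of 0. Sele and Selp therefore fell below the level needed for a test (10 or more counts in a number of mice equal to the smallest group), and the other 6 members passed it in each comparison. Total counts per mouse ran from 14857985 to 57355676 (median 20258935.5), so that 3 counts, taken as the limit of detection, corresponded to 0.0523 to 0.202 CPM, counts scaled to library size, for counting error only. The lowest counts were those of Icam2 (median 29 per mouse) and Icam1 (42.3), against 637 for Vcam1.

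Icam1 lies on chromosome 9 (20926672 to 20940113, plus strand, GRCm39) and Vwf on chromosome 6 (125523737 to 125663642, plus strand). Icam2 is on chromosome 11 (106263312 to 106278943) and Vcam1 on chromosome 3 (115903598 to 115923355), both on the minus strand. The remaining 4 are on chromosome 1: Ptgs2 (149975194 to 149983978), Sele (163867401 to 163886055) and Selp (163942833 to 163977595) on the plus strand, and Ackr1 (173159453 to 173161317) on the minus strand. Sele and Selp are neighbours. The 250 bases before the annotated start of the canonical transcript of Icam1, called higher after CHI at 9 h, and of Vwf, not called there, are shown because NF-kB sites are the textbook route to adhesion gene induction. They are given 5′ to 3′ on the gene's strand, with a match to the 10-base NF-kB (kB) consensus on either strand in capitals.
Icam1 (chr9:20926422-20926671): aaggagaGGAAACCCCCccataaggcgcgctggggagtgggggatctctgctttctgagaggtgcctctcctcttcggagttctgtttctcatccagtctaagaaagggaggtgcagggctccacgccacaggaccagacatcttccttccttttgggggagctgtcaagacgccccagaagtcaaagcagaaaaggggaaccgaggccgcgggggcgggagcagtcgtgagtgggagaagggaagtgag
Vwf (chr6:125529661-125529910): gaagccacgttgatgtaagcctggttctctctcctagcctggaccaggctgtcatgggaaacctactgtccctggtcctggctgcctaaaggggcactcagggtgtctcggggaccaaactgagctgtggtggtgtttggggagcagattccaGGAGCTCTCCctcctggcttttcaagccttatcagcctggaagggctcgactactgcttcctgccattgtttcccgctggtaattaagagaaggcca
The Icam1 window held 1 match, 243 bases before the start, and the Vwf window held 1 as well, 97 bases before it. Neither window overlapped an annotated exon. Matches also stood in the windows of Sele, Ackr1 and Ptgs2, so in 5 of the 8 members, against 24.0% of the windows of 21757 protein-coding genes. The windows of Sele, Ackr1 and Ptgs2 did overlap annotated exons, that of Ackr1 also exons of Cadm3. Windows of the other genes were not screened for exons. A match is a run of letters only, and no binding was measured.

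Several libraries went against their labels, which bears on the strain comparisons. Slco1c1, an endothelial thyroid hormone transporter, was higher in eRestore: 46 of 50 eRestore mice had 88.6 to 185.9 CPM (median 128), and nearly all mice of the other 3 strains had 24.2 to 86.2 (median 58.8). Its neighbour Pde3a stood higher in the same mice (medians 17.2 and 6.29 CPM). Slco1c1 also fell after CHI in C57BL/6J mice at 9 h (-0.81 ± 0.12, log2 with SE). Wdfy1, on chromosome 1 as Il1r1 is, was at 7.92 to 17.6 CPM in 60 of 61 C57BL/6J mice and at 36.3 to 68.8 CPM in nearly all mice of the other strains. These genes were chosen after their values were seen. Split midway between the medians on the log scale, 5 mice went against their label by Slco1c1: CHI replicates 4 and 6 at 9 h, CHI replicate 6 at 24 h and sham replicate 3 at 24 h of eRestore (57.5 to 69.6 CPM), and sham replicate 6 at 24 h of gKO (136.1 CPM). By Wdfy1, 4 mice did: sham replicate 6 at 72 h of C57BL/6J (39.5 CPM), CHI replicate 10 at 72 h of gKO (15.4), CHI replicate 6 at 72 h of nRestore (14.7) and, again, eRestore sham replicate 3 at 24 h (11.8). The sex-linked genes Xist and Ddx3y went against the labelled sex in 2 mice, that nRestore mouse and eRestore sham replicate 4 at 24 h. These are 9 mice in all. The labels were kept, each mouse is named as labelled, and the results were computed again without these 9.

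**Figure D1:**
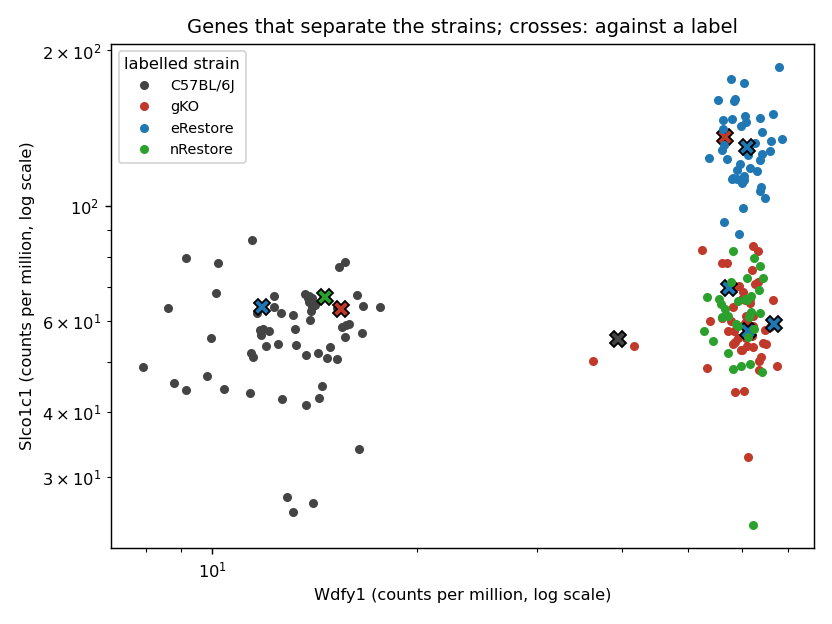
Each point is a mouse, placed by its Wdfy1 level (x axis) and Slco1c1 level (y axis), both in CPM on log scales and coloured by labelled strain; crosses are the 9 mice that went against a label. Most C57BL/6J mice sit left of 17.6 and the other strains right of 36.3 on the x axis, with eRestore above 88.6 on the y axis, and 8 of the crosses sit with another strain's mice; the 9th went against its labelled sex only.

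Il1r1 itself did not separate gKO as lower. Over all mice its median was 5.21 CPM in C57BL/6J, 9.93 in gKO, 7.77 in eRestore and 9.39 in nRestore. Sham gKO mice were above sham C57BL/6J mice by 1.02 ± 0.22 (log2 fold change with its SE), 0.86 ± 0.18 and 1.18 ± 0.18 at 9, 24 and 72 h (edgeR's quasi-likelihood test with Benjamini-Hochberg adjustment, as for every adjusted p below, adjusted p = 0.0065, 0.00098 and 3.8e-05). Reads over the whole gene do not show whether a functional transcript is made, and the labels do not say which part was altered, so they check neither the knockout nor its restoration.

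In C57BL/6J mice at 9 h, Icam1 was higher and Icam2 lower after CHI. Icam1 read 1.02, 1.34 and 2.24 CPM in sham mice (lowest, median and highest of 6) and 0.658, 2.45 and 6.53 CPM in CHI mice (of 15). Of the 15 CHI mice, 11 lay above the highest sham mouse and 1 below the lowest. The mean ratio was 1.83, and the fitted difference 0.86 ± 0.26 (log2, adjusted p = 0.024). Icam2, an adhesion molecule that resting endothelium carries constitutively, read 0.618, 1.35 and 1.85 CPM in sham and 0.384, 0.829 and 1.46 CPM in CHI mice. Its groups overlapped more, with 4 of 15 CHI mice below the lowest sham mouse, and the difference was -0.61 ± 0.20 (adjusted p = 0.039). So 2 of the 6 members tested were called, while 14.1% of all 16967 genes tested were. The call on Icam1 was lost without sham replicate 1, 2 or 5 (adjusted p = 0.0766, 0.0616 and 0.0588), and that on Icam2 without sham replicate 3, 4, 5 or 6 (0.0805 to 0.120) and under 4 other settings (0.120 to 0.343). An antisense RNA shares 10.3% of the exon bases of Icam1, and the neighbouring gene Prr29, on the opposite strand, shares 24.5% of those of Icam2. Strandedness is not given in the sources used here, so that reads from these stretches may be shared.

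The other 4 members did not pass the test in these mice. Vcam1 differed by -0.19 ± 0.10, Vwf by -0.12 ± 0.11, Ackr1 by 0.06 ± 0.10 and Ptgs2 by 0.03 ± 0.12 (log2). Il1r1, the receptor that carries the signal, rose by 1.02 ± 0.19 (adjusted p = 0.00066), with 14 of 15 CHI mice above every sham mouse (sham 2.95 to 5.13 CPM, CHI 4.96 to 13 CPM). The 12 endothelial marker genes were detected in each group, and their summed level was 233, 275 and 297 TPM in sham and 253, 299 and 344 TPM in CHI mice. Of the 12, 2 rose and 4 fell, where 14.1% of all genes tested were called. In bulk tissue, fewer cells of a type and less RNA per cell cannot be told apart.

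**Figure D2:**
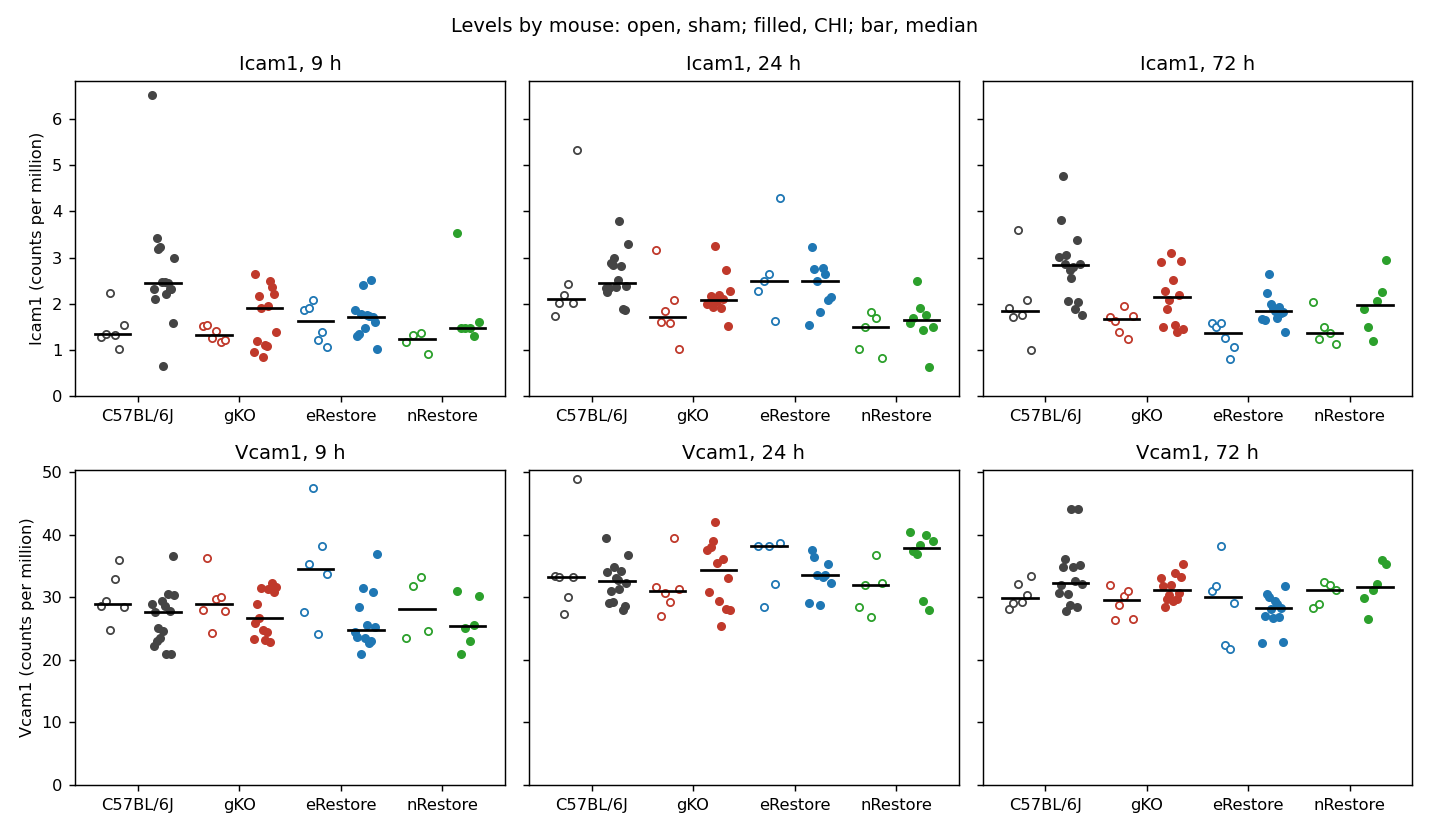
Icam1 (upper row) and Vcam1 (lower row) in CPM, 1 point per mouse, by strain (x axis) and collection time (columns); open points are sham, filled points CHI, and bars are medians. At 9 h the C57BL/6J CHI median of Icam1 is 2.45 against 1.34 in sham mice, with 1 CHI mouse at 6.53, and at 72 h the CHI median is the higher one in each strain.

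In gKO mice at 9 h Ackr1 was the member called, with 1 of 6 passing. This receptor takes up and carries chemokines across venules without signalling through G proteins. It read 12.9, 17.2 and 18.8 CPM in 6 sham mice and 17.7, 21.3 and 25.5 CPM in 13 CHI mice. Of these 13 CHI mice, 11 lay above the highest sham mouse. The mean ratio was 1.26 and the difference 0.37 ± 0.07 (log2, adjusted p = 0.022), in a comparison in which only 0.199% of genes were called. The call was lost without sham replicate 1, 2, 3 or 5 (adjusted p = 0.0561 to 0.161), without the filter on low counts (0.0601) and without covariates (0.132). Icam1 differed by 0.26 ± 0.22 in the same mice, Vwf by 0.34 ± 0.26, Ptgs2 by 0.14 ± 0.15, Vcam1 by -0.10 ± 0.09 and Icam2 by -0.36 ± 0.27, none called.

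Reads given to Ackr1 carry a further doubt. Its exons share 361 of 1405 bases (25.7%) with Cadm3, a neuronal adhesion gene on the same strand, and 16.2% with an antisense RNA. After subtracting group means, Ackr1 and Cadm3 had a Spearman correlation of 0.57 over the 200 mice, which share libraries and depth. Cadm3 differed by 0.02 ± 0.07 between CHI and sham gKO mice at 9 h and by 0.03 ± 0.04 in the average over strains, and it rose in eRestore (0.18 ± 0.05, adjusted p = 0.035), where Ackr1 differed by 0.13 ± 0.08. Ackr1 is also an erythroid gene (the Duffy antigen of red cells), and the summed level of 5 erythroid markers, all detected, was 3.16, 28.0 and 628 TPM in gKO sham and 3.91, 262 and 1390 TPM in gKO CHI mice. The part of either in the Ackr1 difference was not tested.

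In eRestore mice at 9 h no member was called, while 7.34% of 16652 genes were. Vcam1, the ligand of the leukocyte integrin VLA-4, came nearest: 24.1, 34.5 and 47.4 CPM in 6 sham mice and 21.0, 24.9 and 36.9 CPM in 12 CHI mice. Of the 12 CHI mice, 5 lay below every sham mouse and none above. The difference was -0.38 ± 0.13 (adjusted p = 0.073), and it passed under 4 of the settings tried and without sham replicate 4 (adjusted p = 0.024 to 0.049), but stood at 0.129 without the 2 CHI mice that went against their label. Markers of meningeal fibroblasts moved with it, with 4 of 6 lower and a median summed level of 60.5 TPM in sham (lowest 15.4) and 23.0 TPM in CHI mice (14.4 to 46.8), and their part in the Vcam1 difference was not tested. Ptgs2 read 15.2, 20.4 and 24.8 CPM in sham and 13.9, 24.0 and 32.5 CPM in CHI mice, 6 of 12 above every sham mouse. Its difference was 0.27 ± 0.15 (adjusted p = 0.26) with the 2 mice and 0.39 ± 0.11 (adjusted p = 0.030, among 8.19% of genes) without them. Ackr1 differed by 0.13 ± 0.08, Icam1 by 0.06 ± 0.19, Vwf by -0.07 ± 0.17 and Icam2 by -0.37 ± 0.31, none called. For Icam1, the medians were 1.63 CPM in sham and 1.72 CPM in CHI mice, and the groups overlapped.

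In nRestore mice at 9 h, where 4 sham and 6 CHI mice were compared, no member was called either (0.608% of genes were). Icam1 read 1.17, 1.31, 1.36 and 0.908 CPM in the sham mice and 1.31, 1.48 and 3.53 CPM in the CHI mice (lowest, median and highest). Of the 6 CHI mice, 5 lay above every one of the sham mice, and the difference was 0.74 ± 0.35 (adjusted p = 0.38). Ackr1 differed by 0.27 ± 0.12, Ptgs2 by 0.40 ± 0.16, Icam2 by 0.43 ± 0.42, Vwf by 0.26 ± 0.22 and Vcam1 by -0.09 ± 0.15. The sham values of Ptgs2 were 14.8, 11.6, 12.8 and 12.1 CPM, against 12.6, 18.2 and 22.9 CPM in CHI mice, of which 5 of 6 lay above all sham mice.

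Averaged over the 4 strains with equal weight, 3 members were called at 9 h. Ackr1 (0.21 ± 0.05, adjusted p = 0.00034) and Icam1 (0.50 ± 0.13, 0.0032) were higher after CHI and Vcam1 (-0.19 ± 0.06, 0.015) was lower. In this comparison 21.4% of 18741 genes were called. Of the 6 meningeal fibroblast markers 4 fell in the same average (Slc22a6 -1.64 ± 0.29, Col1a2 -0.42 ± 0.12, Lum -0.61 ± 0.16 and Igf2 -0.87 ± 0.26), and their part in the Vcam1 value was not tested. Some microglial and choroid plexus markers fell there too, as given below, and their part was not tested either. The 3 members were called in each of the 18 alternative fits of this average, the one without the 9 mice among them. Of these fits, 12 left out 1 sham mouse of gKO or eRestore. No C57BL/6J or nRestore mouse was left out alone. Within strain and experiment (the experiment identifier in the labels, the nearest thing to a batch), Ackr1 was higher after CHI in 8 of 8 strata, Icam1 in 7 of 8, and Vcam1 lower in 7 of 8. Ptgs2 (0.20 ± 0.09, adjusted p = 0.12), Icam2 (-0.24 ± 0.16) and Vwf (0.05 ± 0.11) were not called. Ptgs2 is also switched on by neuronal activity, and 7 of 7 activity-regulated genes fell in this average. Their part in the Ptgs2 value was not tested.

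**Figure D3:**
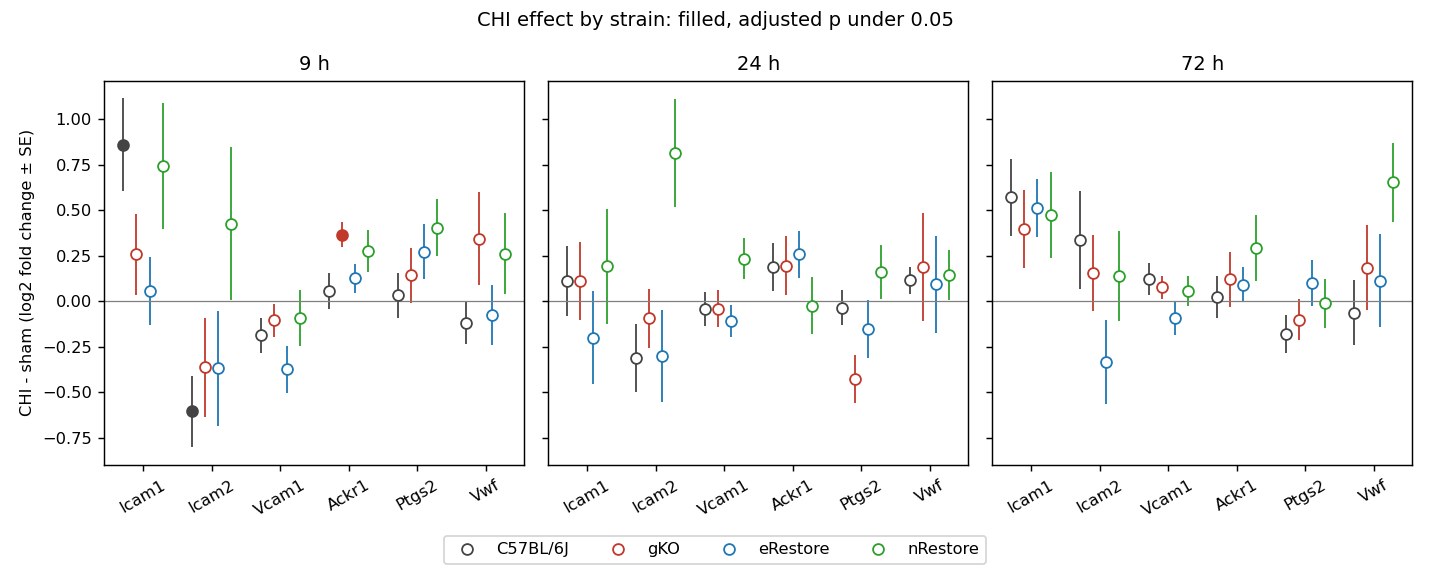
CHI minus sham for the 6 members tested (x axis), as log2 fold change with its standard error (y axis), by strain (colour) and time (panels); filled points have an adjusted p under 0.05. The filled points are Icam1 and Icam2 in C57BL/6J and Ackr1 in gKO, all at 9 h; the values for Icam1 at 72 h lie between 0.40 and 0.57 in the 4 strains.

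At 24 h no member was called in any strain. The share of all genes called was 0.404% in C57BL/6J, 0.0059% in gKO, 0% in eRestore and 0% in nRestore, and 0.876% for the average of the strains. At an unadjusted p under 0.05 there was 1 member in gKO (Ptgs2, -0.43 ± 0.13), 1 in nRestore (Icam2, 0.81 ± 0.29) and none in C57BL/6J or eRestore, and the DESeq2 test called none. Of all genes tested, 1504 of 16577 in C57BL/6J, 1502 of 16953 in gKO, 1494 of 16505 in eRestore and 740 of 17059 in nRestore passed it unadjusted. Icam1 differed by 0.11 ± 0.19 in C57BL/6J, 0.11 ± 0.22 in gKO, -0.20 ± 0.26 in eRestore and 0.19 ± 0.32 in nRestore. CHI and sham mice overlapped for each of the 6 members in each strain.

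The 2 members nearest to a change at 24 h were read by mouse. Ptgs2 in gKO read 14.7, 17.2 and 20.1 CPM in sham mice (lowest, median and highest of 6) and 8.67, 14.9 and 16.8 CPM in CHI mice. Of the 12 CHI mice, 5 lay below every sham mouse (adjusted p = 0.27). Icam2 in nRestore read 0.401, 1.12, 1.64, 1.29 and 1.23 CPM in the 5 sham mice and 1.01, 1.5 and 2.41 CPM in CHI mice. Of the 8 CHI mice, 4 lay above every sham mouse (adjusted p = 0.96). Vwf, which stood low in gKO sham mice at this time, read 5.39, 11.3 and 20.7 CPM there and 7.08, 17.7 and 22.7 CPM in gKO CHI mice, a difference of 0.19 ± 0.30.

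Levels at the later times are given by group median for the more abundant members. Group medians ran from 31 to 38.2 CPM at 24 h and 28.2 to 32.4 CPM at 72 h for Vcam1, and from 13.4 to 17.9 and 12.4 to 16.7 CPM for Ackr1. For Ptgs2 they ran from 14.4 to 17.4 and 13.7 to 15.3 CPM, against 12.5 to 24.4 CPM in the 9 h groups. These came from other experiments and were collected at another time of day. Vwf medians spread more, from 10.1 to 20.9 and 14.1 to 24.7 CPM, and those of Icam2 from 1.23 to 1.81 and 1.31 to 1.73 CPM.

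At 72 h Icam1 stood higher after CHI when the strains were averaged, with values of 0.40 to 0.57 (log2) in each of them. The sham medians were 1.84 CPM in C57BL/6J, 1.67 in gKO and 1.38 in both eRestore and nRestore, and the CHI medians were 2.83, 2.15, 1.83 and 1.98 CPM. In eRestore, 11 of 12 CHI mice (1.39 to 2.65 CPM) lay above 1.58 CPM, the highest of the 6 sham mice. The 5 nRestore sham mice read 2.04, 1.24, 1.5, 1.38 and 1.13 CPM, and 3 of 6 CHI mice exceeded them all. The fitted differences were 0.57 ± 0.21, 0.40 ± 0.21, 0.51 ± 0.16 and 0.47 ± 0.24 (log2) in C57BL/6J, gKO, eRestore and nRestore, none past the threshold alone (adjusted p = 0.82, 1.00, 0.79 and 0.79). At an unadjusted p under 0.05 there was 1 member each in C57BL/6J and eRestore (Icam1) and in nRestore (Vwf, 0.65 ± 0.22, with 4 of 6 CHI mice above every sham mouse), and none in gKO. Of all genes tested, 869 of 16875 in C57BL/6J, 376 of 16709 in gKO, 943 of 16536 in eRestore and 930 of 16508 in nRestore stood under 0.05 unadjusted.

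The average over the strains passed it. It was 0.47 ± 0.10 (adjusted p = 0.0027), and Icam1 was the 1 member called, among 0.679% of 18408 genes. Without the 9 mice it was 0.39 ± 0.10 (0.026). In the same average 1 of 5 astrocyte markers (Gfap, 0.68 ± 0.09), 1 of 6 meningeal fibroblast markers (Col1a1, 0.66 ± 0.14) and 3 of 5 microglial markers rose and none of the 12 endothelial markers was called, and the part of these cells in the Icam1 value was not tested. In single strains the share of all genes called at 72 h was 0% in C57BL/6J, 0% in gKO, 0.00605% in eRestore and 0.0121% in nRestore. Within strain and experiment, Icam1 was higher after CHI in 10 of 11 strata, and Vcam1 in 10 of 11 too, though Vcam1 averaged only 0.06 ± 0.04 and was not called. No experiment held both 9 h mice and later ones, so a difference of 9 h from 24 or 72 h is also one of experiment, and the design cannot separate them. Time of day differed too. The study's methods say that surgery was done in the morning and that time of day may add to variation in activity-regulated genes. One experiment held CHI and sham mice of C57BL/6J, gKO and eRestore at both 24 and 72 h, and there the Icam1 difference was 0.20, -0.04 and 0.03 at 24 h and 0.67, 0.27 and 0.57 at 72 h in these strains in order (difference of mean log2 of CPM + 0.1, no covariates). A second experiment held CHI and sham mice of C57BL/6J at both times. There the Icam1 difference was 0.51 at 24 h (5 CHI mice, 1 sham mouse) and 0.62 at 72 h (1 and 1). The difference of the Icam1 effect between times was not tested.

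The comparison of eRestore with gKO asks whether the CHI effect on these genes differs between mice labelled as knockout and mice labelled as restored for the receptor. No member passed the test. The eRestore effect minus the gKO effect at 9 h was -0.20 for Icam1 (95% interval -0.88 to 0.48), 0.00 for Icam2 (-0.77 to 0.78), -0.29 for Vcam1 (-0.60 to 0.02), -0.26 for Ackr1 (-0.49 to -0.02), 0.13 for Ptgs2 (-0.35 to 0.61) and -0.42 for Vwf (-0.97 to 0.14). Every adjusted p was 0.72 or higher. The interval of Ackr1 was the narrowest and that of Icam2 the widest.

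At 24 h the difference was -0.39 for Icam1 (-0.99 to 0.22), -0.61 for Vwf (-1.20 to -0.02) and between -0.20 and 0.23 for the other 4. At 72 h it was 0.14 for Icam1 (-0.40 to 0.67), 0.04 for Vwf (-0.60 to 0.68), -0.42 for Icam2 (-1.05 to 0.21) and between -0.19 and 0.20 for the rest. The share of all genes called was 0%, 0.00541% and 0% at the 3 times in order. At an unadjusted p under 0.05 there was 1 member at 9 h (Ackr1), 1 at 24 h (Vwf) and none at 72 h, and DESeq2 called none at any time. Under that unadjusted threshold stood 1209 of 18741 genes at 9 h, 911 of 18495 at 24 h and 623 of 18408 at 72 h. Without the 9 mice, Icam1 at 24 h was -0.57 ± 0.33 and Vwf -0.63 ± 0.31, and no member was called. At 24 h, CHI mice of both strains came partly from an experiment without sham mice of these strains. Within experiment, CHI minus sham for Vwf was then 0.24 in eRestore, and -0.43 and 0.43 in gKO. For Icam1 it was 0.03 in eRestore, and 0.21 and -0.04 in gKO. These are differences of mean log2 of CPM + 0.1, without covariates.

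**Figure D4:**
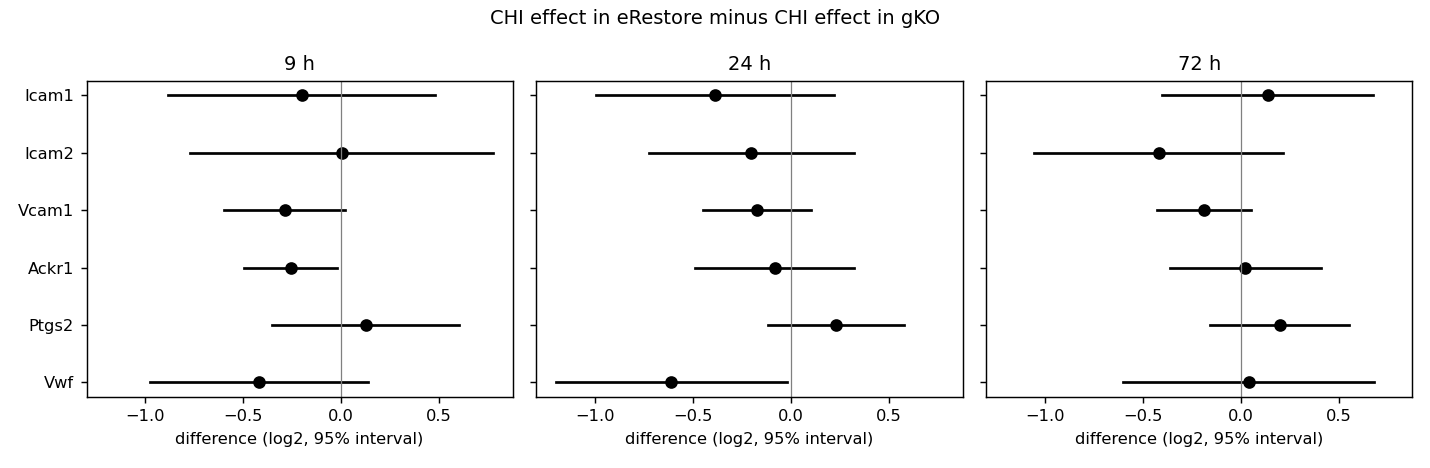
The CHI effect in eRestore minus the CHI effect in gKO (x axis, log2 units) for the 6 members tested (y axis) at 9, 24 and 72 h; points are estimates and lines 95% intervals. The lines cross 0 except those of Ackr1 at 9 h (-0.49 to -0.02) and Vwf at 24 h (-1.20 to -0.02), and none passed the adjusted threshold.

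Other pairs of strains gave the same count. For C57BL/6J minus gKO no member was called at 9 h (0% of genes), 24 h (0.00541%) or 72 h (0%), and likewise for C57BL/6J minus eRestore (0.0107%, 0.0108% and 0%) and nRestore minus gKO (0%, 0% and 0.00543%). For Icam1 at 9 h the C57BL/6J effect exceeded the eRestore effect by 0.73 ± 0.33 (adjusted p = 0.52) and the gKO effect by 0.53 ± 0.34 (0.83), and for Icam2 the nRestore effect exceeded the gKO effect by 0.77 ± 0.49 (1.00). Thus the call in C57BL/6J and its absence in the other strains do not show that the strains differ. These comparisons share mice. The effect in males minus that in females, over C57BL/6J, gKO and eRestore, called no member, and the share of all genes called was 0% at each of the 3 times.

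Sham mice showed where strains stood without injury. For eRestore against gKO no member was called at any time, with 0.00534%, 0.0108% and 0.0163% of genes called at 9, 24 and 72 h. Vwf, made by endothelium and megakaryocytes, came nearest at 24 h. The 5 eRestore sham mice read 20.9, 17.2, 27.3, 18.5 and 40.1 CPM, and the 6 gKO sham mice 5.39, 11.3 and 20.7 CPM (lowest, median and highest). The gKO mouse at 20.7 CPM, replicate 5, lay within the eRestore range and the other 5 below it. The difference was 0.97 ± 0.24 (adjusted p = 0.35), 0.89 ± 0.26 without the mice that went against their labels and 1.18 (adjusted p = 0.0311) without that gKO mouse. At 9 and 72 h the same difference was 0.32 ± 0.23 and -0.06 ± 0.26.

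Against C57BL/6J sham mice, 1 member was called at 9 h and 3 at 24 h. Ackr1 was higher in eRestore at 9 h (0.34 ± 0.10, adjusted p = 0.048, and 0.053 without the 9 mice), where 2.29% of genes were called. In nRestore at 24 h Icam1 (-0.86 ± 0.25, adjusted p = 0.032), Icam2 (-0.70 ± 0.21, 0.040) and Vwf (-0.88 ± 0.25, 0.025) were lower, against 4.44% of genes. For Icam1 the nRestore sham mice read 1.03, 1.49, 1.82, 1.70 and 0.823 CPM and the C57BL/6J sham mice 1.74, 2.10 and 5.34 CPM, where the highest belonged to replicate 6. All 5 nRestore sham mice were of 1 experiment, and with experiment in place of age as covariate none of the 3 passed (adjusted p = 0.0529 to 0.194). No member was called for gKO (0.63%, 3.99% and 0.293% of genes at 9, 24 and 72 h), for eRestore at 24 h (1.01%) and 72 h (0.456%), or for nRestore at 9 h (0.694%) and 72 h (0.598%).

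**Figure D5:**
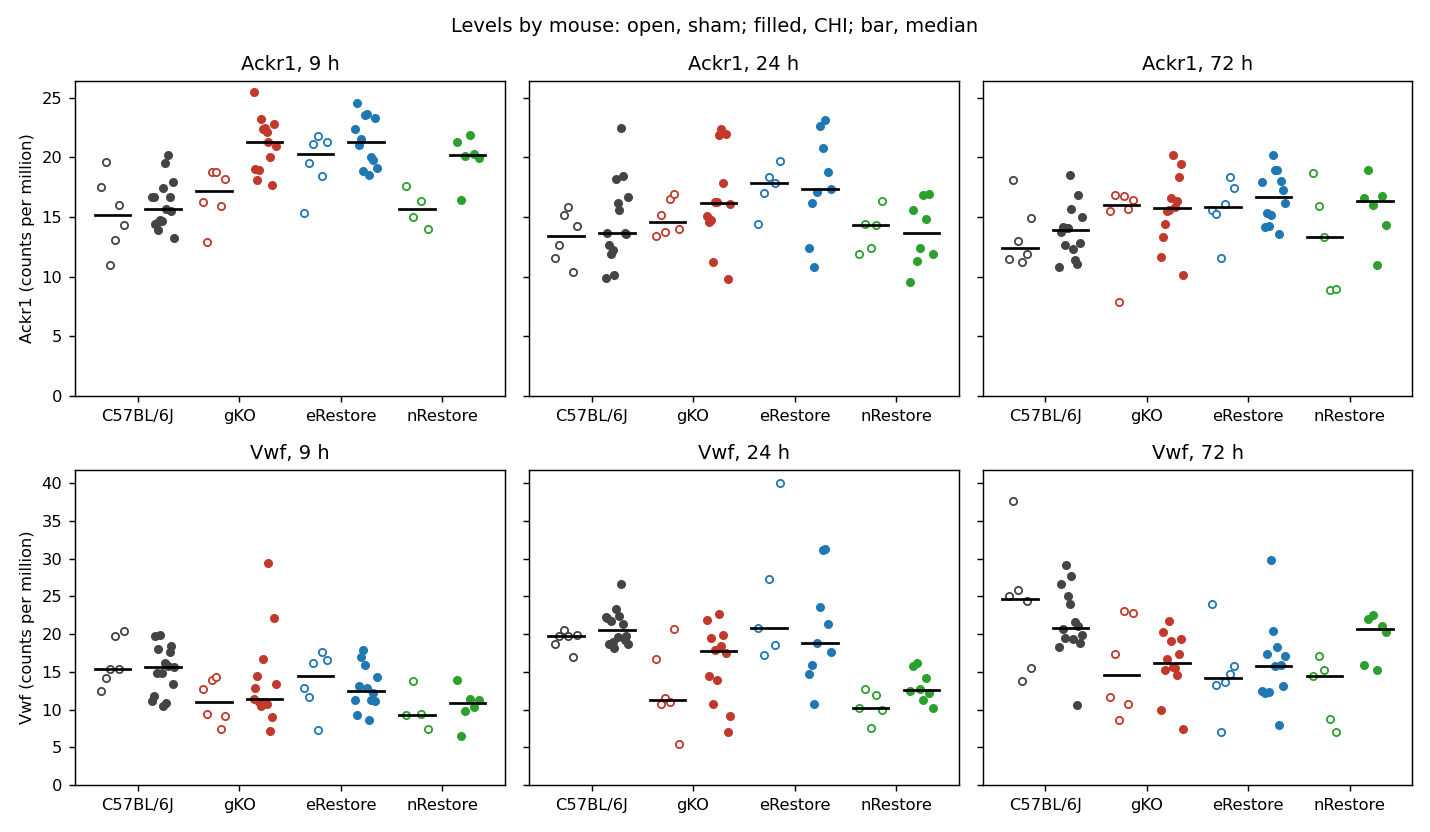
Ackr1 (upper row) and Vwf (lower row) in CPM, 1 point per mouse, by strain (x axis) and time (columns); open points are sham, filled points CHI, and bars are medians. At 9 h, 11 of 13 gKO CHI mice lie above the highest gKO sham mouse for Ackr1 (18.8), and at 24 h 1 eRestore sham mouse stands at 40.1 for Vwf.

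E-selectin and P-selectin, which catch leukocytes as they roll, stayed near the limit of detection. Sele had more than 3 counts in 26 of 200 mice and Selp in 16, and Selp had any count in 59. For Sele, 31 of 46 CHI mice had a count at 9 h (67.4%) against 10 of 22 sham mice (45.5%), then 53.5% against 50.0% at 24 h and 47.7% against 39.1% at 72 h. For Selp the shares were 19.6% against 13.6%, 51.2% against 31.8% and 36.4% against 8.7%. At 72 h, 10 of 14 C57BL/6J CHI mice had a Selp count and 0 of 6 C57BL/6J sham mice did, while in the other 3 strains 6 of 30 CHI mice had one. With medians of 0 or 1 count, shares of this kind can move with depth, and no difference was tested.

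Few mice held more than 10 counts. Sele reached 26 counts in eRestore sham replicate 5, 17 in C57BL/6J CHI replicate 14 and 14 in C57BL/6J sham replicate 6, all male mice of 1 experiment at 24 h, and 12 in nRestore CHI replicate 1 at 9 h. Selp reached 18 in C57BL/6J CHI replicate 3 at 9 h, 15 in the same C57BL/6J CHI replicate 14 and 11 in the same eRestore sham replicate 5. Of these 3 mice of 1 experiment, 2 were sham mice. The sham mice also stood high in Icam1 (4.29 CPM in the eRestore and 5.34 in the C57BL/6J sham mouse, against 1.62 to 2.65 and 1.73 to 2.42 in the other sham mice of their groups), and the eRestore mouse had the 40.1 CPM of Vwf named above and 3.26 CPM of Lcn2, a secreted iron-binding protein of acute inflammation.

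Within groups the members were weakly related to each other. After subtracting group means, the Spearman correlation over 200 mice was at most 0.37 between any pair (Ackr1 and Vwf), and 0.32 for Icam1 and Selp. The genes most like each member, among 17788 tested at all times, were Igfbp7, Arpc1b and Tgm2 for Icam1 (0.46, 0.40 and 0.39), Vtn, Slc13a3 and Slc39a8 for Icam2 (0.45, 0.39 and 0.38), Timp3, Gja1 and Itgb1 for Vcam1 (0.63, 0.54 and 0.53), and Fn1, Abcb1a and Ptprb for Vwf (0.75, 0.62 and 0.61). Ptgs2 was most like Fosb, Rap2a and Nrn1 (0.60, 0.60 and 0.56), of which Fosb is induced by neuronal activity, and Ackr1 like Dcaf7, Gprasp1 and Slc8a2 (0.63, 0.62 and 0.61). Sele had no correlation above 0.25. With the endothelial marker Cldn5 the correlation was 0.325 for Icam2, 0.24 for Vcam1, 0.14 for Icam1, 0.10 for Vwf and 0.09 for Ackr1. Cldn5 was the only endothelial marker read in this way, so these values do not show how a member relates to endothelial RNA as a whole. Vcam1 had 0.52 with Slc1a3, which is an astrocyte marker, as Gja1 is. Bulk RNA does not show which cells the reads of a member came from. The mice share libraries and sequencing depth, so these are descriptions.

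Genes that act with the members were counted from lists of their pathways. At 9 h in C57BL/6J mice, 10 of 25 tested genes of the NF-kB and cytokine response rose and 2 fell (median log2 difference 0.39, against -0.01 over all genes), in a comparison with 14.1% of all genes called, led by Lcn2 (3.79 ± 0.45) and Lrg1 (1.64 ± 0.24), which rose, and Cxcl12 (-0.57 ± 0.09), which fell. In eRestore 0 of 22, in gKO 0 of 23 and in nRestore 1 of 22 were called (medians 0.03, 0.17 and 0.58), the last being Fgf2 (0.90 ± 0.16), where 7.34%, 0.199% and 0.608% of all genes were called, so that in gKO and nRestore counts near 0 are those of the background. Averaged over strains, 15 of 26 rose and 2 fell at 9 h, against 21.4% of all genes called. Of 15 genes of Weibel-Palade bodies and haemostasis, 4 rose in C57BL/6J, among them Plat (0.61 ± 0.09), Angpt2 (1.60 ± 0.35), a storage granule cargo that loosens vessels, and Plaur (1.24 ± 0.30). Vwf, stored in the same granules, was not among them. Prostaglandin genes held 1 call of 16, Hpgd, the enzyme that breaks prostaglandins down (-0.45 ± 0.11), and in the interleukin-1 list 3 rose and 1 fell of 16.

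On the leukocyte side, integrin chains that bind Icam1 were among the genes called at 9 and 72 h. The share of all genes called was 14.1% in C57BL/6J at 9 h and 0.679% in the average over strains at 72 h. At 24 h it was 0.876% in the average and 0.404% in C57BL/6J. Of 10 ligand genes tested in C57BL/6J at 9 h, Itgax rose (2.48 ± 0.45) while Selplg, the ligand of P-selectin (-0.41 ± 0.13), and Itgam (-0.38 ± 0.12) fell. At 72 h, averaged over strains, 5 of 10 rose and none fell, among them Itgax (1.42 ± 0.24), Itgb2 (0.35 ± 0.06), Itgam (0.22 ± 0.05) and Cd44 (0.39 ± 0.08), in the comparison in which Icam1 was the member called. Of the 5 microglial markers 3 rose there, and microglia carry Itgam and Itgb2 as well as blood cells do. Neutrophil markers were too low to be tested. At 24 h none of the ligands passed in the average, and in C57BL/6J Itgam fell (-0.29 ± 0.06, adjusted p = 0.026). The other endothelial adhesion and junction genes at 9 h in C57BL/6J gave 2 higher (Esam 0.37 ± 0.07, Pecam1 0.39 ± 0.10) and 3 lower of 14, Alcam (-0.29 ± 0.06) and F11r (-0.53 ± 0.14) among them.

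In the other strains the counts at 9 h are read beside the shares of all genes called, 0.199% in gKO, 7.34% in eRestore and 0.608% in nRestore. In gKO none of the 6 lists held a call. In eRestore, Cd44 rose (0.87 ± 0.25) and Itgam fell (-0.47 ± 0.12) among the ligands, Alcam fell among the endothelial genes, Hpgd and Pla2g4a fell among the prostaglandin genes and Cd63 among the Weibel-Palade genes. In nRestore the lists held 2 calls, Fgf2 and Alcam, which fell (-0.37 ± 0.08). Averaged over strains at 9 h, 5 of 17 interleukin-1 genes rose and 1 fell, 4 of 15 Weibel-Palade genes rose and 1 fell, 2 of 17 prostaglandin genes rose and 5 fell, 3 of 14 endothelial genes rose and 2 fell, and 3 of 10 ligands rose and 2 fell, beside 21.4% of all genes called in either direction. For the eRestore effect minus the gKO effect no gene of these lists was called at any time. Between sham mice at 24 h, Lcn2 was higher in eRestore than in gKO (5.89 ± 1.10, adjusted p = 0.011), where 0.0108% of genes were called. Against C57BL/6J sham mice at that time it was lower in gKO (-5.73 ± 1.08) and nRestore (-4.21 ± 0.95), where 3.99% and 4.44% of genes were called.

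Markers of other cells in the tissue were read beside the members. In the average over strains at 9 h, 21.4% of all genes were called in either direction. Averaged over strains at 9 h, 3 of 12 endothelial markers rose and 4 fell, 2 of 8 pericyte and smooth muscle markers rose and 1 fell, 4 of 5 microglial, 3 of 6 choroid plexus and 4 of 6 meningeal fibroblast markers fell, 1 of 5 tested platelet markers and 2 of 5 astrocyte markers rose, and 1 of 5 neuronal markers rose. No erythroid, monocyte or lymphocyte marker tested was called in that average. Endothelial marker sums ran from 215 to 420 TPM over the groups at 9 h, with none of the 12 genes at 0. Neutrophil sums were at most 5.29 TPM at 9 h except in 1 gKO CHI mouse with 76.8 TPM, and the neutrophil marker Ly6g was at 0 in 6 of 8 groups there.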

How the data were processed

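Whole-brain-hemisphere RNA of PBS-perfused mice was poly(A)-selected and sequenced. The authors trimmed the reads, used STAR with the GRCm39 genome for alignment and Salmon for quantification through nf-core/rnaseq, and deposited estimated counts and TPM per gene and mouse; DESeq2 and FastQC are also named in the submitters' notes, and the annotation release and strandedness are not given in the sources used here. The study's methods describe the C57BL/6J mice, and the same steps were assumed for the other strains.

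Groups came from the labels. Estimated counts were rounded, genes were kept if a number of mice equal to the smallest group held 10 or more counts each, and edgeR 4.0.16 (R 4.3.3, TMM, robust quasi-likelihood test, sex and age as covariates) was fitted per strain and time, or over all 8 groups of a time for differences between strains, sham mice and averages. Sex was left out where only 1 sex was present. P-values were adjusted over all genes tested, with a call at 0.05. They measure the spread between the mice sampled. CPM are TMM-scaled over 200 mice. DESeq2 1.42.0 and other settings were alternatives, some added after the data were seen. Scripts were tested on simulated data.

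The members and lists were chosen with earlier results of these data known. Genes named are the members, Il1r1, up to 4 called genes per list and comparison by smallest p, and the 3 genes most like each member. One gene that this rule would name is not reported here. Slco1c1, Pde3a, Wdfy1, Cadm3, Slc1a3 and the single high mice were named after their values were seen. Coordinates and promoters are from GRCm39 with GENCODE annotation.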

Additional observations from a re-analysis of the deposited data

Results flagged for a closer look

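In 15 of 124 sets of values, each of 1 gene in 1 group of 4 to 10 mice, 1 mouse stood apart by Dixon's test. Chance would single out about 1 set in 20. That share does not hold for Sele and Selp, whose groups entered only if a mouse had more than 3 counts. The 15 can therefore not be set against it. All values are in CPM. Icam1 was highest in nRestore CHI replicate 1 at 9 h (3.53, others 1.31 to 1.60) and in C57BL/6J sham replicate 6 at 24 h (5.34, others 1.73 to 2.42). Vcam1 was highest in that C57BL/6J mouse (49.0, others 27.3 to 33.4) and in gKO sham replicate 5 at 24 h (39.4, others 27.1 to 31.7). Ackr1 was lowest in nRestore CHI replicate 2 at 9 h (16.4, others 19.9 to 21.9) and in gKO sham replicate 3 at 72 h (7.88, others 15.5 to 16.9). Il1r1 was highest in gKO sham replicate 2 (14.0, others 6.09 to 8.32) and eRestore sham replicate 3 (16.7, others 5.32 to 7.06), both at 9 h.

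For the selectins the values rest on 4 to 26 counts. Sele was highest in C57BL/6J sham replicate 6 at 24 h (0.923), eRestore sham replicate 5 at 24 h (1.03), eRestore sham replicate 1 at 72 h (0.191) and nRestore sham replicate 5 at 72 h (0.297). Selp was highest in C57BL/6J sham replicate 3 at 9 h (0.224), nRestore CHI replicate 1 at 9 h (0.271) and eRestore CHI replicate 7 at 24 h (0.299).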

How the results depend on the processing

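The averages over strains kept their calls under all 18 alternatives of each: at 9 h Icam1 from 0.47 to 0.51, Ackr1 from 0.19 to 0.23 and Vcam1 from -0.22 to -0.16, and at 72 h Icam1 from 0.39 to 0.50 (log2). Of the 18, 12 left out 1 sham mouse of gKO or eRestore, and no C57BL/6J or nRestore mouse was left out alone. The averages were thus not tried without the single C57BL/6J sham mice whose removal lost calls in that strain. Calls within single strains were not all kept, and the cause was not tested. The counts of members called below stand without the share of all genes called under the same setting. A change in such a count is therefore not read as a result about the members. In C57BL/6J at 9 h, 1 member was called in place of 2 with DESeq2 gene-length offsets, without the filter, without covariates and in 1 fit of all 4 strains, where Icam2 stood at -0.38, -0.60, -0.59 and -0.59. In gKO at 9 h 0 members were called without the filter or without covariates (Ackr1 0.36 and 0.34). In eRestore at 9 h 1 was called in place of 0 with DESeq2 size factors, gene-length offsets, experiment in place of age, 1 fit of all strains (all Vcam1) and without the 9 mice (Ptgs2). Against C57BL/6J sham mice, eRestore at 9 h had 0 calls without the filter and without the 9 mice (Ackr1 0.34 in both), nRestore at 9 h had 1 without covariates (Ptgs2, -0.92), and gKO at 24 h had 1 without the filter (Selp). For nRestore at 24 h, the call without the filter was Selp, with few counts, and the 3 others no longer passed (1 member called, Icam1 -0.86, Icam2 -0.70, Vwf -0.88), Icam2 was lost without covariates (-0.71), and 0 were called with experiment (Icam1 -0.90, Icam2 -0.56, Vwf -0.73). Ptgs2 averaged at 9 h passed with experiment (0.22, adjusted p = 0.0274). Vwf in nRestore at 9 h turned to -0.49 with gene-length offsets. Leaving out 1 sham mouse in turn gave 0 to 1 calls in C57BL/6J at 9 h (Icam1 0.77 to 0.96, Icam2 -0.71 to -0.50, Vwf -0.18 to 0.0109 without replicate 4), 0 to 1 in gKO (Ackr1 0.33 to 0.39), 0 to 1 in eRestore, and 0 to 1 for eRestore sham minus gKO sham at 24 h (Vwf 0.73 to 1.18). CHI mice were not left out in turn. Of 930 values under the other alternatives 26 changed sign and of 1032 under leaving out a mouse 57 did; none was called, and values within 1 SE of 0 were given no direction. The low counts of Icam1 and Icam2 and those of Sele and Selp limit what can be seen. No paired analysis was possible because CHI and sham mice are different animals. The labels give no replicate numbers, and those printed follow the order of the samples and only name a mouse. The experiment, which groups share only in part, was left out of the main fits and was fitted as a covariate, in place of age, only as an alternative. At 24 h, CHI mice of gKO, eRestore and nRestore came partly from an experiment that held no sham mice of these strains. In those main fits a CHI difference is in part one of experiment.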
